A study of Mus musculus with 24 samples.

Results

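Interferon-inducible GTPases are proteins that cells make after interferon to attack microbes inside the cytoplasm. This account covers 8 of their mouse genes, chosen by name: the guanylate-binding protein genes Gbp2, Gbp3 and Gbp6, and the immunity-related GTPase genes Igtp, Irgm1, Irgm2, Iigp1 and Ifi47. The rule is a list of names and uses no threshold on these data, although the list was drawn up with earlier results of them known. A probe set that names the gene alone was found for 7 of the 8 genes, among 17097 genes in all. Gbp6 had none and was not analysed here.

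The genes were read on arrays of 24 mouse samples. The cell line, BKO408, came from a leukaemia of B-cell precursors (preB-ALL) in a mouse lacking Blnk, the adaptor of pre-B-cell receptor signalling, and it was kept in IL-7 at 5 ng/ml. It is a single line, measured as 4 BKO408 samples and 4 BKO408 LAP samples, into which a retrovirus had brought Cebpb LAP. LAP is the form of C/EBPβ, a transcription factor, that switches genes on. Both of these groups lack Blnk. The tumours were 5 Blnk preB-ALL from Blnk knockout mice, 3 LAP/Blnk preB-ALL from Blnk knockout mice with a LAP transgene, 4 LAP preB-ALL and 4 LAP B-ALL from LAP transgenic mice. The promoter of the transgene, the age and strain of the mice, the tissue and the share of tumour cells are not given here, nor whether the BKO408 samples without LAP carried an empty virus. Nothing in the labels says that replicates were separate cultures or animals, so each p-value rests on the spread among these samples alone, which may be technical.

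Guanylate-binding proteins are large GTPases that coat pathogens and the vacuoles that hold them, and help to open these vacuoles and to alert inflammasomes. Immunity-related GTPases fall into effectors, such as Iigp1 and Ifi47, which load onto pathogen vacuoles, and regulators of the Irgm group, Irgm1, Irgm2 and Igtp (also called Irgm3), which sit on the cell's own membranes and hold the effectors in an inactive state. Both families are induced by interferon-gamma. Promoters of such genes often hold gamma-activated sites and interferon-stimulated response elements, and IRF1 binds the latter.

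In their promoters, most of the 8 genes hold letters that match the response element, and fewer hold the gamma-activated site. RefSeq promoters (GRCm38.p6, 250 bases before to 50 after the start) were listed for 6 of the 8 genes, and not for Gbp6 or Iigp1. The patterns were searched on both strands, the response element as GAAA, any 2 bases and GAAA, and the gamma-activated site as TTCNNNGAA. The first was found in the promoters of 5 of the 6 genes and of 3.99% of all 27025 genes listed (3.44% of 32851 promoters), and the second in 2 of the 6 and in 9.55% of all genes (8.3% of promoters). The 120 bases before the start are shown for the 5 genes with a match, because the position and crowding of these elements differ between the genes. Capitals mark matched letters, and each sequence is on the gene's own strand.
Gbp2 (chr3:142620543-142620662, plus strand): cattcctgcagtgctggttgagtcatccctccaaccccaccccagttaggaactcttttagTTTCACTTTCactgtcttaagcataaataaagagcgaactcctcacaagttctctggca
Gbp3 (chr3:142559924-142560043, plus strand): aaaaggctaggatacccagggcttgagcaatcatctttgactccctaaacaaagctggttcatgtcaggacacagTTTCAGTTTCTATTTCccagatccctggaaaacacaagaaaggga
Igtp (chr11:58199436-58199555, plus strand): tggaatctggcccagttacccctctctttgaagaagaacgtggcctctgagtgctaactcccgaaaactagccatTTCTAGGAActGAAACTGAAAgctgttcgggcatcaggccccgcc
Irgm1 (chr11:48871421-48871540, minus strand): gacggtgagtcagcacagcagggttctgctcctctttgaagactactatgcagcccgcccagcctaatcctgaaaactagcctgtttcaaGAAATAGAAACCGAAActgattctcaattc
Irgm2 (chr11:58214857-58214976, plus strand): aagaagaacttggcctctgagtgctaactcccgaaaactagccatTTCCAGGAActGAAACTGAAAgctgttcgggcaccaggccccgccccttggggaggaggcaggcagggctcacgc

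In the guanylate-binding protein genes the response element read on the opposite strand. It began 59 bases before the start of Gbp2, and in Gbp3 a pair of overlapping matches began 45 and 39 bases before the start. The matches of Irgm1 also overlapped, beginning 30 and 24 bases before the start. In Igtp a gamma-activated site 45 bases before the start stood beside a response element at 34 bases, and Irgm2 had the same order at 75 and 64 bases. The promoters of Igtp and Irgm2 were alike beyond these elements. With Irgm2 moved by 30 bases, 184 of 270 bases were identical (68.1%), including an unbroken run of 61 bases, against 34.0% for Igtp and Irgm1 and 34.9% for Gbp2 and Gbp3. The window of Ifi47 held neither pattern, and a second listed promoter of Gbp3 held none. A match is a description of letters and shows no binding.

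Each value below is a log2 ratio. Every probe set had a median of 0 over the 8 arrays of the cell line, and again over the 16 tumours, so a value says how far a sample lay from the middle of its own set, and no level of expression was kept. Genes therefore cannot be ranked by level, and cells cannot be set against tumours. Within groups the median gene had an SD of 0.0602 and 0.0502 in the cell-line groups and between 0.157 and 0.236 in the tumour groups. LAP B-ALL 4 stood apart: over all genes its correlation with the other LAP B-ALL was between -0.07 and -0.03, against up to 0.856 among those. Cebpb, read by the probe set of the largest spread, was at -3.11 in this tumour, within the range of Blnk preB-ALL (-4.50 to -1.94) and below the other LAP B-ALL (up to 0.90), LAP/Blnk preB-ALL (-0.03 to 0.51) and LAP preB-ALL (-1.41 to 0.19). Results for LAP B-ALL are given with and without it. In the cell line Cebpb was between -0.14 and 0.01 in BKO408 and between -0.01 and 0.24 with LAP, and Blnk between 0.03 and 0.10 and between -0.07 and -0.03. In the tumours Blnk overlapped between knockout (-0.68 to 1.23) and other mice (-0.53 to 1.45). The sources do not say whether these probe sets lie in the introduced or deleted parts, so they do not settle the labels.

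The first comparison asked what LAP changes in BKO408 cells. Of the 7 genes measured, 6 were lower with LAP and passed the test (limma, adjusted p under 0.05 over all genes), and 1, Iigp1, did not. Across all genes 11.8% passed in that direction and 10.5% in the other. The median difference of the 7 genes was -0.24, against -0.01 over all genes, and the falls ran from 1.10-fold for Irgm2 to 2.06-fold for Gbp2.

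Gbp2, a guanylate-binding protein that gathers on pathogen vacuoles, was at 0.47, 0.51, 0.60 and 0.48 in BKO408 1 to 4 and at -0.47, -0.66, -0.50 and -0.50 in BKO408 LAP 1 to 4. Every LAP sample lay far below every sample without LAP. The difference was -1.04 ± 0.05 (SE, n = 4 and 4; limma adjusted p = 7.39e-07), a 2.06-fold fall. The probe set read here has the manufacturer's suffix for probes that can also bind other transcripts. The other Gbp2 probe set, which has no such suffix, differed by -1.06 (exact permutation p = 0.0286, two-sided, the smallest that 4 against 4 allows; 0.178 after Benjamini-Hochberg adjustment over 28 tests).

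Gbp3, of the same family, was at 0.32, 0.35, 0.44 and 0.29 without LAP and at -0.47, -0.38, -0.48 and -0.29 with it. The groups did not overlap here either. It fell by 0.75 (SE 0.05; 1.69-fold, limma adjusted p = 8.02e-06). For Gbp2 and Gbp3 the spread over the 8 cell-line arrays was larger than that of 99.7% and 99.2% of genes.

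The Irgm regulators moved by less. Irgm1, which is also tied to autophagy and to the survival of blood stem cells, was at 0.12, 0.14, 0.15 and 0.0945 without LAP and at -0.0945, -0.12, -0.12 and -0.13 with it. It fell by 0.24 (SE 0.03; 1.18-fold, limma adjusted p = 1.37e-04). Irgm2, which restrains inflammasome activation, was at 0.052, 0.071, 0.16 and 0.047 and then at -0.048, -0.047, -0.054 and -0.067, a fall of 0.14 (SE 0.03; 1.10-fold, adjusted p = 0.0120). Both genes were lower in all 4 LAP samples than in any sample without LAP. Igtp, a regulator found on the endoplasmic reticulum and on lipid droplets, was at 0.20, 0.0435, 0.24 and 0.16 and then at -0.0435, -0.052, -0.058 and -0.11. It fell by 0.23 (SE 0.04; 1.17-fold, adjusted p = 0.00418), and BKO408 2 lay nearest to the LAP samples.

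The effectors parted. Ifi47 was at 0.13, 0.18, 0.23 and 0.20 without LAP and at -0.16, -0.21, -0.13 and -0.15 with it, a fall of 0.35 (SE 0.03; 1.27-fold, limma adjusted p = 6.06e-05). Iigp1, the best studied effector of vacuole attack, was at -0.0091, -0.012, 0.0059 and -0.055 without LAP and at 0.11, 0.033, -0.0059 and 0.038 with it. These groups overlapped, and the difference of 0.06 ± 0.03 did not pass (adjusted p = 0.216; 95% interval -0.0097 to 0.13). Its other probe set differed by -0.032, so the direction was not settled. Iigp1 was also the flattest of the 7 genes in these cells: 17.1% of all genes had a smaller spread over the 8 arrays. The values keep no level, so whether Iigp1 was above background in these cells cannot be told.

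**Figure D1:**
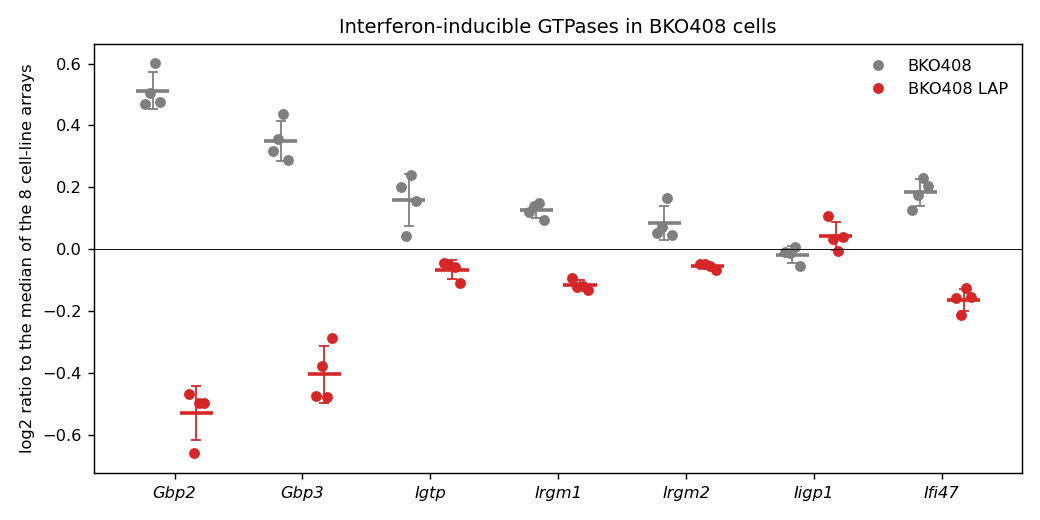
Log2 ratios of the 7 genes, relative to the middle of the 8 arrays of the line (vertical axis), in BKO408 and BKO408 LAP samples. Points are samples, thick bars are group means and thin bars are the SD (n = 4). The groups stand apart for 6 genes, most for Gbp2 (means 0.51 and -0.53), and overlap for Iigp1.

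The 6 genes that passed were also the 6 whose groups did not overlap, with LAP lower. Over all genes 14.4% did so. The count stayed at 6 when any 1 of the 8 arrays was left out, and it was 0 when the 24 arrays were fitted together and cells took the wider spread of tumours. Beside this fall, 3 of 13 markers of monocytes and macrophages, cells in which C/EBPβ is known to act, passed as higher (23.1%, against 10.5% of all genes). These were Ccr2 by 2.25, Lyz2 by 1.53 and Fcgr1 by 0.41, and 0 passed as lower. Of the 13 markers 6 had higher means with LAP and 7 lower, with a list median of -0.0018. Of 11 T-cell markers 1 was higher and 1 lower (9.09% each). Of 14 B-lineage markers 1 was higher (7.14%, against 10.5% of all genes) and 6 lower (42.9%, against 11.8%). The part of these markers in the result was not tested.

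The other genes of the pathway did not move as one. Of 9 measured of 20 other interferon-inducible GTPases, 3 passed as lower (33.3%, against 11.8% of all genes) and 0 as higher. The 3 were Tgtp1, an effector of the immunity-related family, by 0.91 (SE 0.03; limma adjusted p = 1.41e-07), Gbp7 by 0.35 and Gbp4 by 0.13. That count was 1 without BKO408 2 or without BKO408 LAP 1, 2 or 3. The list median was -0.06.

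Of 24 measured of 25 interferon ligands, receptors and signalling genes, 5 were lower (20.8%, against 11.8% of all genes) and 3 higher (12.5%, against 10.5%). Irf1, whose product binds the response element, was at 0.304, 0.175, 0.25 and 0.175 without LAP and at -0.24, -0.258, -0.182 and -0.175 with it. The groups did not overlap, and Irf1 fell by 0.44 (SE 0.04; limma adjusted p = 3.85e-05). Ifngr1, the ligand-binding chain of the interferon-gamma receptor, fell by 0.44 (SE 0.03; adjusted p = 1.81e-05). The regulator Irf2 fell by 0.38, the type I interferon receptor chain Ifnar1 by 0.22 and the kinase Jak2 by 0.16. Nlrc5, the activator of major histocompatibility complex (MHC) class I genes, rose by 0.68, and Ptpn2 and Socs3, which damp cytokine signals, rose by 0.28 and 0.27. Ifng itself differed by -0.03 and did not pass.

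Of 21 measured of 25 interferon-gamma targets that are not GTPases, 5 were higher (23.8%, against 10.5% of all genes) and 2 lower (9.52%, against 11.8%). The class I genes H2-K1 and H2-D1 rose by 0.47 and 0.34, Wars, a tRNA synthetase, by 0.37, the immunoproteasome subunit Psmb9 by 0.25 and the checkpoint ligand Cd274 by 0.13. The proteasome genes Psmb10 and Psme1 fell by 0.21 and 0.19. The median of this list was 0.02.

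Of 28 measured of 33 type I interferon targets, 10 were lower (35.7%, against 11.8% of all genes) and 0 higher, with a median of -0.07. Xaf1 and Zbp1, which act in cell death, fell by 0.45 each, Trim30a by 0.43, Ifi27l2a by 0.40, the RNA sensor gene Ddx58 by 0.38 and Dtx3l by 0.33. Of 15 measured of 19 partners of these GTPases, 3 were higher (20%, against 10.5% of all genes) and 2 lower (13.3%, against 11.8%). Atg5, Gabarapl1 and Atg3, of the conjugation system that directs them to membranes, rose by 0.28, 0.17 and 0.12. Map1lc3a, of the same system, fell by 0.23 and Trim21, a ubiquitin ligase, by 0.18.

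**Figure D2:**
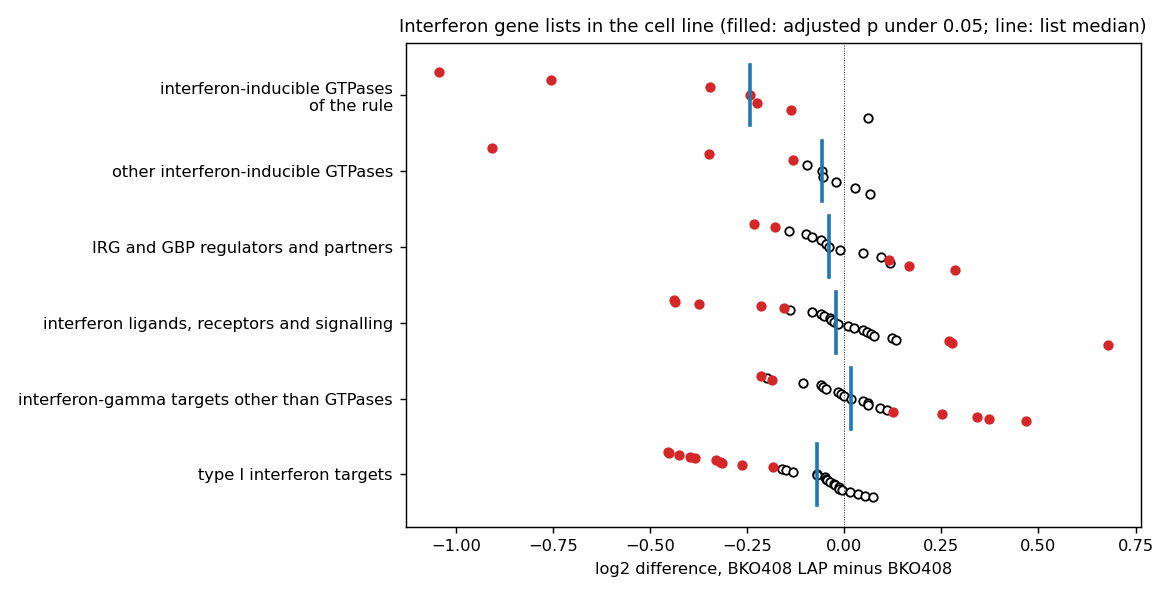
Log2 difference, BKO408 LAP minus BKO408 (horizontal axis), of every measured gene in 6 lists. Filled points passed limma's test, and the vertical line is the list median. Gbp2 (-1.04) and Tgtp1 (-0.91) lie farthest to the left, and Nlrc5 (0.68) farthest to the right.

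In the tumours the same genes varied widely from sample to sample. Over the 16 tumours the SD was 2.10 for Iigp1, 1.49 for Gbp2, 1.25 for Igtp, 1.19 for Irgm2, 1.07 for Ifi47, 0.81 for Gbp3 and 0.63 for Irgm1, against a median of 0.28 over all genes. Iigp1, nearly flat in the cell line, had a larger spread than 99.3% of genes here. The group means of most genes fell in one order, LAP/Blnk preB-ALL, Blnk preB-ALL, LAP preB-ALL and LAP B-ALL from low to high. LAP/Blnk preB-ALL was lowest for 6 of the 7 genes and LAP B-ALL highest for 6. The share of all genes with these places was not counted. The 7 genes varied together over the same tumours, so these counts do not stand for independent observations. Gbp3 was instead lowest in Blnk preB-ALL (-0.59, against -0.55 in LAP/Blnk preB-ALL), and Ifi47 highest in LAP preB-ALL (0.58, against 0.50 in LAP B-ALL). Neighbours in that order did not differ by the test for any gene.

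Gbp2 was at -2.28, -0.41, -0.55, -0.36 and 0.36 in Blnk preB-ALL 1 to 5 and at -0.93, -0.36 and -1.58 in LAP/Blnk preB-ALL 1 to 3. LAP preB-ALL 1 to 4 read 0.54, 0.90, -1.63 and 2.21, and LAP B-ALL 1 to 4 read 2.55, 1.67, 2.48 and 0.49. All 4 LAP B-ALL lay above all Blnk preB-ALL and all LAP/Blnk preB-ALL, while LAP preB-ALL reached from near the bottom of the series to near its top.

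Gbp3 was at -1.02, -1.04, -1.14, 0.11 and 0.16 in Blnk preB-ALL and at -0.29, -0.22 and -1.14 in LAP/Blnk preB-ALL. The LAP preB-ALL read 0.65, -0.69, -0.11 and 0.56, and the LAP B-ALL 1.26, 0.66, 0.88 and 0.91. This was the one gene of the 7 for which every LAP B-ALL exceeded every other tumour, by a narrow margin over LAP preB-ALL 1. LAP B-ALL 4 lay amid its group here.

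Igtp was at -1.36, -0.49, -0.028, -0.63 and 0.41 in Blnk preB-ALL, at -0.86, -1.42 and -1.13 in LAP/Blnk preB-ALL, at 0.45, 1.32, -0.92 and 2.30 in LAP preB-ALL, and the LAP B-ALL read 1.64, 1.38, 2.16 and 0.028. Irgm2 ran close to it, at -1.96, -0.32, -0.19, -0.73 and 0.53, then -0.84, -1.29 and -1.42, then 0.19, 0.80, -1.004 and 1.497, and then 1.48, 1.08, 2.16 and 0.24. For both regulators the 3 LAP/Blnk preB-ALL were low together. LAP preB-ALL 3 and Blnk preB-ALL 1 were as low as they were, and Blnk preB-ALL 1 was the lowest tumour for Irgm2. Irgm1, the third regulator, was at -0.96, 0.23, -0.048, -0.077 and 0.048 in Blnk preB-ALL, at -1.04, -0.98 and -0.64 in LAP/Blnk preB-ALL, at 0.37, 0.17, -1.03 and 0.76 in LAP preB-ALL, and the LAP B-ALL read 0.15, -0.24, 0.82 and 0.44. Its range was the narrowest of the 7 genes, with Blnk preB-ALL 1, LAP preB-ALL 3 and the 3 LAP/Blnk preB-ALL below the rest.

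Iigp1 had the widest range. It was at -2.25, 0.215, -0.215, -0.90 and 1.27 in Blnk preB-ALL and at -1.42, -2.28 and -3.20 in LAP/Blnk preB-ALL. The LAP preB-ALL read 0.31, 1.88, -0.52 and 3.15, and the LAP B-ALL 2.92, 1.87, 3.38 and -1.99. LAP B-ALL 4 lay far below the rest of its group, among the LAP/Blnk preB-ALL. Ifi47 was at -0.70, 0.11, -0.11, -0.38 and 0.58 in Blnk preB-ALL, at -1.72, -1.74 and -1.47 in LAP/Blnk preB-ALL, at 0.46, 1.32, -0.90 and 1.44 in LAP preB-ALL, and the LAP B-ALL read 0.64, 0.50, 1.52 and -0.64. The 3 LAP/Blnk preB-ALL held the 3 lowest Ifi47 values of the 16 tumours.

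**Figure D3:**
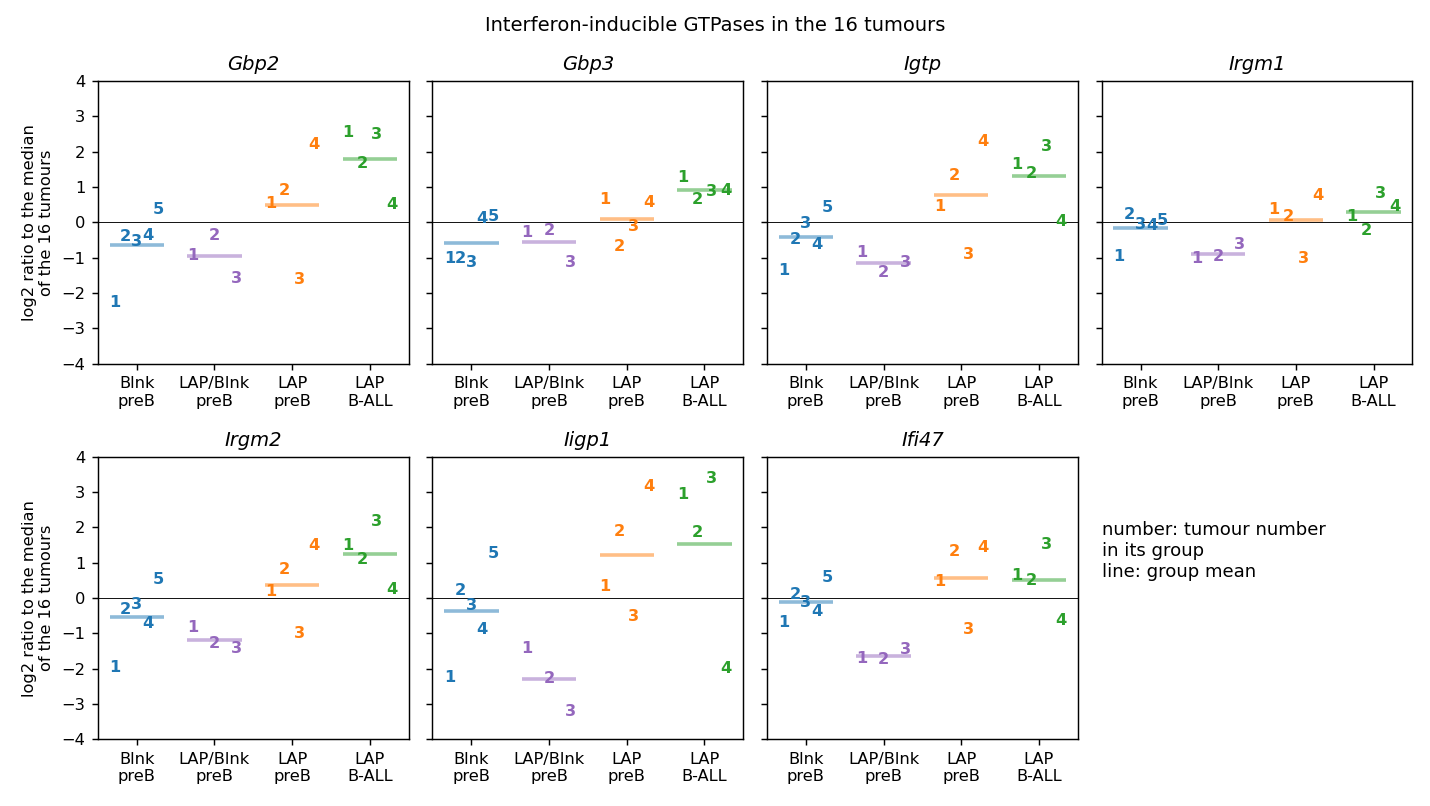
Log2 ratios of the 7 genes to the median of the 16 tumours (vertical axis), 1 panel a gene. Numbers are tumours within their group and lines are group means. LAP/Blnk preB-ALL were below 0 for all 7 genes, and LAP B-ALL 4 lay below its group for 5 genes, most for Iigp1 (-1.99).

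In 11 of the 16 tumours all 7 genes lay on one side of 0. All 7 genes were below 0 in LAP/Blnk preB-ALL 1, 2 and 3, Blnk preB-ALL 1 and 3, and LAP preB-ALL 3. All 7 were above 0 in Blnk preB-ALL 5, LAP preB-ALL 1 and 4, and LAP B-ALL 1 and 3. The other 5 were mixed, with 3 genes above 0 in Blnk preB-ALL 2, 1 in Blnk preB-ALL 4, 6 in LAP preB-ALL 2, 6 in LAP B-ALL 2 and 5 in LAP B-ALL 4. Over the 21 pairs of genes the correlation across the 16 tumours ran from 0.42 (Gbp3 with Ifi47) to 0.97 (Igtp with Irgm2), with a median of 0.82. With each group's mean removed it was still above 0 for all 21 pairs, with a median of 0.74. The lowest of these was 0.08, for Gbp3 with Ifi47. The genes were read on the same arrays, so the correlations describe these samples. In the cell line the same measure within groups had a median of 0.19 over 8 arrays.

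LAP/Blnk preB-ALL and Blnk preB-ALL differ by the LAP transgene on a Blnk knockout background. No GTPase gene passed the test. Only 3 of all genes passed, each as higher (0.0175%), and 989 genes (5.78%) had an unadjusted p under 0.05. Of the 7 genes 6 had lower means with LAP, as did 55.5% of all genes, with a median of -0.72 against -0.02 over all genes. Ifi47 differed by -1.54 (SE 0.52; limma adjusted p = 0.599; 95% interval -2.66 to -0.43), and it was the one gene whose groups did not overlap, which 2.69% of genes did in that direction. Irgm1 differed by -0.72 (interval -1.503 to 0.060), Iigp1 by -1.93 (-4.41 to 0.56) and Gbp3 by 0.034 (-0.78 to 0.85). The intervals of Gbp2 (-1.95 to 1.33) and Irgm2 (-1.91 to 0.62) are wide enough to hold their differences in the cell line. That of Ifi47 lay below its difference in the cell line (-0.35).

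The test of the difference between the LAP effect in these tumours and in the cell line passed for none of the 7 genes, against 0.521% and 0.532% of genes in the 2 directions. It was nearest for Ifi47, by -1.20 (SE 0.28; limma adjusted p = 0.0556). Leaving out Blnk preB-ALL 1, 4 or 5 brought Ifi47 past the threshold (-1.35, -1.27 and -1.03; adjusted p = 0.00783, 0.0396 and 0.0128), and without Blnk preB-ALL 1 Irgm1 (-0.68, adjusted p = 0.0142) and Iigp1 (-2.46, adjusted p = 0.0485) passed too. Without any 1 of the 8 cell-line arrays the adjusted p of Ifi47 was between 0.110 and 0.123. For Gbp2 and Gbp3 the difference of effects was in the other direction, at 0.74 and 0.79, and did not pass. With quantile normalization these were 3.08 and 2.20 and passed (limma adjusted p = 1.89e-05 and 8.94e-05), as did Iigp1 (-1.21, adjusted p = 0.0496), while Ifi47 was at -0.04. That step put cell and tumour arrays, of unlike spread, on a shared distribution. It thus rescaled the effect in cells, and its calls cannot show that the effects differ on the deposited scale. With array weights Ifi47 (-1.16) and Iigp1 (-1.71) passed, and with only the genes of larger spread Ifi47 did (adjusted p = 0.0495).

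LAP preB-ALL and Blnk preB-ALL differ in both the transgene and Blnk. All 7 genes had higher means in LAP preB-ALL, as did 50.7% of all genes, with a median difference of 0.91, and none passed, against 0.00585% of genes called as higher and 0.076% as lower. The largest was Iigp1 at 1.58 (95% interval -0.70 to 3.87), and Igtp differed by 1.21 (-0.03 to 2.44). Every one of the 7 genes overlapped between these groups, while 1.72% of all genes lay wholly higher in LAP preB-ALL.

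LAP/Blnk preB-ALL and LAP preB-ALL both carry the transgene and differ in Blnk. All 7 means were lower in LAP/Blnk preB-ALL, as were 54% of all genes, with a median difference of -1.55, and Ifi47 passed alone, against 0.784% of all genes. It was lower by 2.22 (SE 0.54; 4.66-fold, limma adjusted p = 0.0496). The values of Ifi47 and of Iigp1 did not overlap between the groups, which 8.18% of genes did in that direction, and Iigp1 differed by -3.51 (SE 1.21; adjusted p = 0.152). The call rested on single tumours: without LAP/Blnk preB-ALL 1, 2 or 3, or without LAP preB-ALL 1, 2 or 4, Ifi47 differed by -2.31 to -1.93 with adjusted p between 0.0761 and 0.139. Without LAP preB-ALL 3, the low tumour of its group, it was -2.71 (adjusted p = 0.0214). It was lost when only these groups were fitted (adjusted p = 0.141).

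LAP B-ALL and LAP preB-ALL both come from LAP transgenic mice. No gene of all passed this test (limma, 0%; 1886 genes, or 11%, at an unadjusted p under 0.05), but 291 did without LAP preB-ALL 4 and 5 without LAP B-ALL 4, and no GTPase gene was among them. Gbp3 was higher in LAP B-ALL by 0.83 (95% interval 0.04 to 1.62; adjusted p = 0.439) and did not overlap, which 1.84% of genes did in that direction. For Ifi47 and Irgm1 the differences were -0.07 and 0.23. Without LAP B-ALL 4 the differences were 1.73 for Gbp2, 1.52 for Iigp1, 1.20 for Irgm2, 0.94 for Igtp, 0.83 for Gbp3, 0.31 for Ifi47 and 0.18 for Irgm1, with adjusted p between 0.355 and 0.886.

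LAP B-ALL exceeded Blnk preB-ALL in the mean of all 7 genes and of 44% of all genes, with a median difference of 1.72. Gbp3 passed alone, against 0.48% of all genes, at 1.51 ± 0.35 (SE; 2.86-fold, limma adjusted p = 0.0490). Gbp2 and Gbp3 did not overlap, which 3.36% of genes did in that direction, and Gbp2 differed by 2.45 ± 0.70. The Gbp3 call was lost without Blnk preB-ALL 1, 2, 3 or 4 or without LAP B-ALL 1, 2 or 3, with differences from 1.37 to 1.69 and adjusted p from 0.0582 to 0.139. Without LAP B-ALL 4, 5 genes passed, against 5.49% of all genes: Iigp1 at 3.10 (adjusted p = 0.0377), Gbp2 at 2.88 (0.0265), Igtp at 2.14 (0.0334), Irgm2 at 2.11 (0.0321) and Gbp3 at 1.52 (0.0289). In that fit Irgm1 and Ifi47 differed by 0.41 and 0.99 and did not pass.

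The median difference was widest between LAP B-ALL and LAP/Blnk preB-ALL, the ends of the order, and so was that of 5 of the 7 genes. Gbp3 was wider between LAP B-ALL and Blnk preB-ALL (1.51 against 1.48), and Ifi47 between LAP/Blnk and LAP preB-ALL (2.22 against 2.15 in size). All 7 means were higher in LAP B-ALL, as were 47.9% of all genes, with a median difference of 2.42. Irgm2 at 2.42 ± 0.62 (SE; 5.36-fold, limma adjusted p = 0.0467) and Ifi47 at 2.15 ± 0.54 (4.43-fold, adjusted p = 0.0454) passed, against 1.32% of all genes. For 6 genes the groups did not overlap, which 10.9% of genes did in that direction, and Iigp1 overlapped through LAP B-ALL 4 alone. Both calls were lost when any 1 of LAP B-ALL 1, 2 and 3 or of the 3 LAP/Blnk preB-ALL was left out, with Irgm2 from 2.12 to 2.59 (adjusted p 0.0976 to 0.151) and Ifi47 from 1.81 to 2.23 (0.0999 to 0.127).

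Without LAP B-ALL 4, 6 of the 7 genes passed in that comparison, against 6.12% of all genes. Iigp1 differed by 5.03 (adjusted p = 0.00802), Gbp2 by 3.19 (0.0258), Igtp by 2.86 (0.0153), Irgm2 by 2.76 (0.0164), Ifi47 by 2.53 (0.0107) and Gbp3 by 1.49 (0.0463). Irgm1 differed by 1.13 (0.100). With that tumour left out, 1980 of all genes passed, against 602 with it. The tumour comparisons share groups, so their values are not independent of each other.

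**Figure D4:**
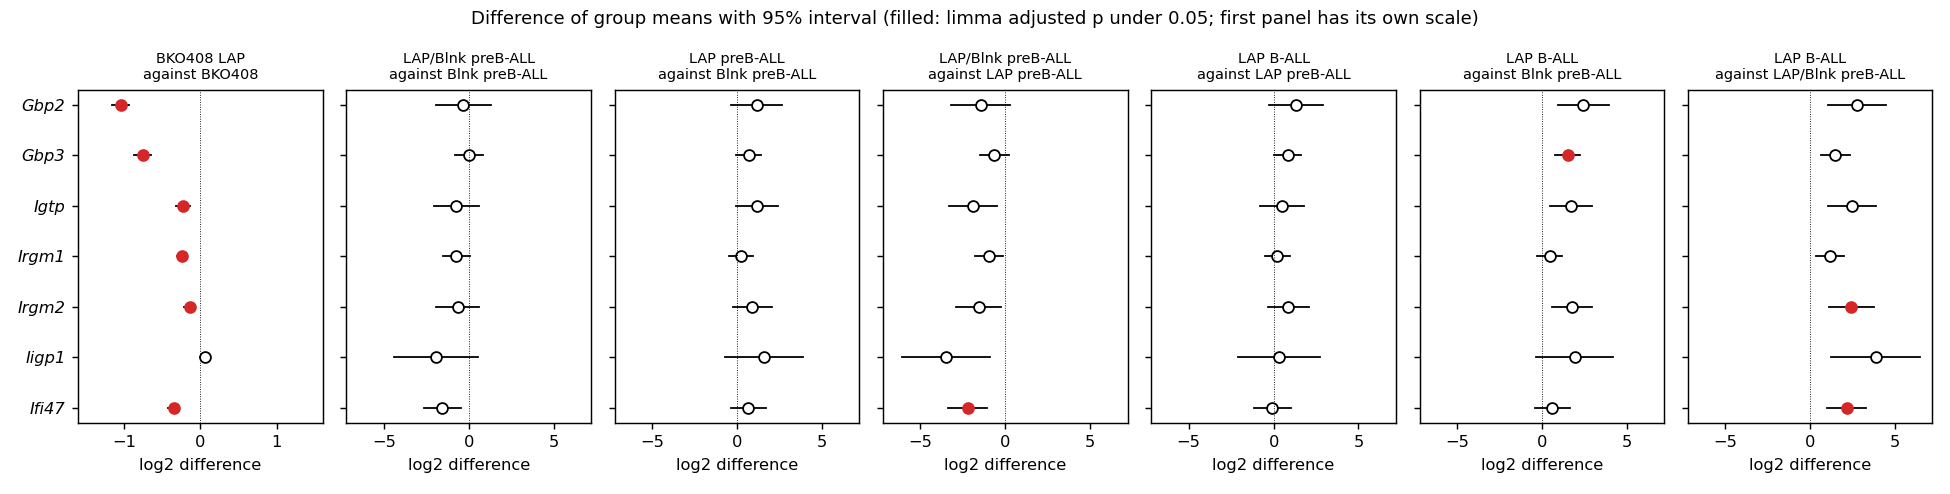
Difference between group means on the log2 scale (horizontal axis) with its 95% interval from limma for the 7 genes, 1 panel a comparison. Filled points passed the test. In the cell line 6 genes passed, in the tumours Ifi47 passed in 2 comparisons and Gbp3 and Irgm2 in 1 each, and the interval of Iigp1 was the widest (1.24 to 6.45 in the last panel).

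Lists of other cells moved with these tumours. In whole tumours, more cells of a type and more RNA per cell cannot be told apart. T-cell markers (11 of 12 measured) had list medians from -0.51 to -0.05 in LAP/Blnk preB-ALL, at 0.74, 0.64, 2.33 and -0.01 in LAP B-ALL 1 to 4, and at 1.33, 0.81 and 1.29 in LAP preB-ALL 2 and 4 and Blnk preB-ALL 5. Monocyte and macrophage markers (13 of 15 measured) were between -0.77 and -0.51 in LAP/Blnk preB-ALL, while LAP B-ALL 1 to 4 read 1.04, 1.03, 2.25 and 0.03. In the comparison of LAP B-ALL with LAP/Blnk preB-ALL, 13 of 13 monocyte and macrophage markers and 10 of 11 T-cell markers were higher on average, of which Cd5l passed (4.88). NK-cell markers were higher for 6 of 10, and Klrb1c passed as lower (-3.30), against 2.21% of all genes.

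Other lists also differed between these tumours. Erythroid markers (7 of 9 measured) were at 5.10, 5.04, 6.09 and 5.82 in LAP B-ALL 1, 2 and 3 and LAP preB-ALL 4 and between -0.55 and 0.47 in the other 12 tumours. The GTPase means of these same tumours, in that order, were 1.52, 0.99, 1.92 and 1.70, the highest of the series. LAP preB-ALL 2 came next, at 0.81. The same tumours were also highest for Gbp2, Igtp and Irgm2, but not for the other GTPase genes. Granulocyte markers (12 of 13 measured) had higher means in LAP B-ALL than in LAP/Blnk preB-ALL for 12 of 12, with a median of 2.0 and none past the test. Their list median was 2.63 in LAP B-ALL 4 and 3.39 in Blnk preB-ALL 5, whose GTPase means were -0.08 and 0.48 (medians 0.239 and 0.415). B-lineage markers (14 of 15 measured) had lower means in LAP B-ALL for 9 of 14, with a median of -1.16, and Ms4a1 passed as higher (7.47). Their list median was between -0.87 and -0.33 in LAP preB-ALL 1 to 4 as well as LAP B-ALL 1 to 3, between 0.20 and 0.30 in LAP/Blnk preB-ALL and 0.71 in LAP B-ALL 4. Dendritic-cell markers had higher means for 5 of 6, and stromal and endothelial markers for 1 of 12, with none past the test. LAP preB-ALL 1 had T-cell and monocyte medians of -0.11 and -0.57 and a GTPase mean of 0.42. Centred values cannot show which markers are at background. The part of these cells in the GTPase values was not tested.

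**Figure D5:**
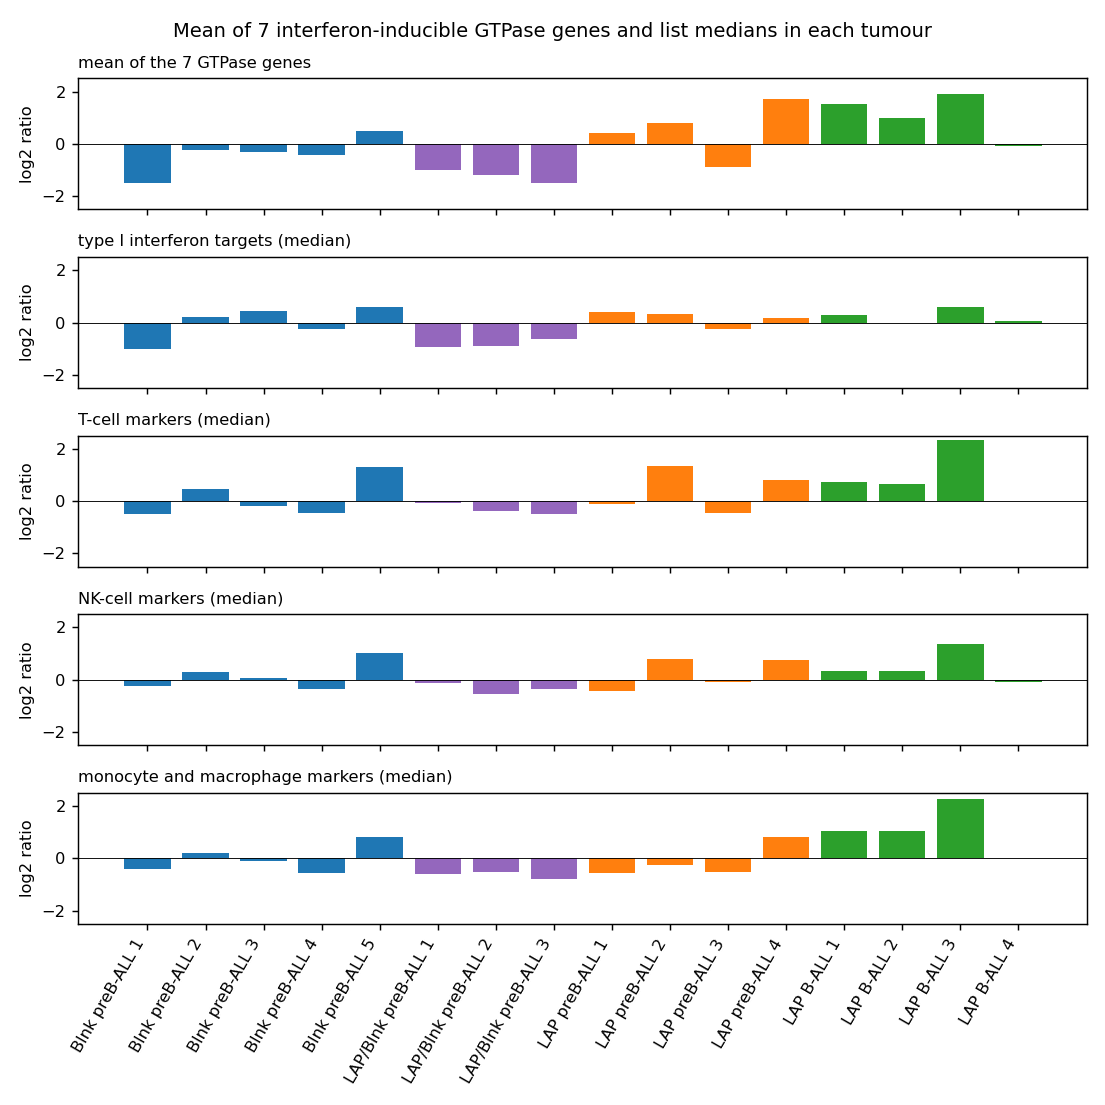
Mean of the 7 GTPase genes and medians of 4 lists in each of the 16 tumours (vertical axis, log2 ratio to the median of the tumours; bars coloured by group). LAP B-ALL 3 was highest for the GTPases (1.92) and for T-cell (2.33) and monocyte markers (2.25), and the 3 LAP/Blnk preB-ALL were below 0 in every panel.

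The rest of the pathway was read in the same comparisons. Between LAP/Blnk preB-ALL and LAP preB-ALL, 2 of 28 type I interferon targets passed, both lower (7.14%, against 0.784% of all genes). These were the RNA sensor Dhx58 by 1.81 and Ifi35 by 0.86. That count was 0 without any 1 LAP/Blnk preB-ALL or LAP preB-ALL 1, 1 without LAP preB-ALL 2 or 4, and 4 without LAP preB-ALL 3. Of 9 other GTPases 0 passed, and Tgtp1 differed by -2.37 (limma adjusted p = 0.125). Between LAP/Blnk and Blnk preB-ALL none of these lists had a call. There 27 of 28 type I targets had lower means with LAP (median -0.88), as did 55.5% of all genes (median -0.02).

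Between LAP B-ALL and Blnk preB-ALL, 2 of 15 partners, 1 of 24 signalling genes and 1 of 21 interferon-gamma targets passed as higher. That is 13.3%, 4.17% and 4.76% of these lists, against 0.48% of all genes. The partners Gabarap and Gabarapl2 were higher by 0.77 and 1.02, the kinase gene Tyk2 by 1.03 and Ifi30, a lysosomal reductase, by 1.58. Without LAP B-ALL 4, 8 of 21 interferon-gamma targets, 3 of 24 signalling genes and 2 of 28 type I targets passed as higher. In that fit 5.49% of all genes did, and the type I count was close to this share. The calls of Gabarap, Gabarapl2, Tyk2 and Ifi30 each rested on single tumours: 0 partner, signalling or interferon-gamma target genes passed as higher without Blnk preB-ALL 1, 2, 3 or 4 or without LAP B-ALL 1, 2 or 3, while without Blnk preB-ALL 5 the signalling and target counts were 3 and 2.

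Between LAP B-ALL and LAP/Blnk preB-ALL, 4 of 28 type I targets passed as higher (14.3%, against 1.32% of all genes). These were Zbp1 by 2.23, Sp100 by 2.03, Dhx58 by 1.49 and Ifi35 by 0.88. Rnf213, a ubiquitin ligase that coats microbes in cells, was higher by 2.15, the invariant chain gene Cd74 by 3.67 and Tyk2 by 0.99. The ubiquitin ligase gene Traf6 was lower by 0.67. Rnf213 and Traf6 were the calls among 15 partners (6.67% each way, against 1.32% of all genes as higher and 2.21% as lower). Cd74 was 1 of 21 interferon-gamma targets (4.76%) and Tyk2 1 of 24 signalling genes (4.17%). The type I count was 9 without LAP B-ALL 4, and 2, 1 and 0 without LAP B-ALL 1, 2 and 3. It was 0, 0 and 1 without LAP/Blnk preB-ALL 1, 2 and 3. Without LAP B-ALL 1, 2 or 3, or LAP/Blnk preB-ALL 1 or 2, 0 partner, signalling and interferon-gamma target genes passed as higher, and Traf6 was lost without LAP B-ALL 1, 2 or 3 or LAP/Blnk preB-ALL 1 or 3. Without LAP B-ALL 4, 9 interferon-gamma targets, 4 partners, 4 signalling genes and 2 other GTPases passed as higher, as did 6.12% of all genes.

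Ifng, which encodes the ligand, stood out in 4 tumours. LAP preB-ALL 2 and 4 read 1.55 and 2.08, LAP B-ALL 1 and 3 read 1.47 and 2.77, and the other 12 tumours were between -0.24 and 0.29. The same 4 tumours had the 4 highest values of Iigp1 and of Ifi47, but not of the other 5 genes. For Iigp1 the margin was narrow, with LAP preB-ALL 2 at 1.884 and LAP B-ALL 2 at 1.870. LAP B-ALL 2, with Ifng at 0.29, lay above LAP preB-ALL 2 for Gbp2, Gbp3, Igtp and Irgm2 and in the mean of the 7 genes (0.99 against 0.81). LAP B-ALL 4 had Ifng at 0.05.

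The 10 genes most like the mean of the 7 over the 16 tumours, by Pearson correlation, were Csf1r (0.968), Tgtp1 (0.966), Trafd1 (0.964), Isg20 (0.954), Zbp1 (0.953), Gltp (0.952), Irf1 (0.950), Ctss (0.948), Bcl2a1a (0.946) and Rasgrp1 (0.945). Csf1r is the receptor of the macrophage growth factor and was one of the listed monocyte markers. Its values were 1.76, 1.03, 2.38 and -0.07 in LAP B-ALL 1 to 4 and between -1.52 and -0.59 in LAP/Blnk preB-ALL. Irf1 was between 0.57 and 1.65 in LAP B-ALL and between -0.47 and -0.18 in LAP/Blnk preB-ALL. Over the 8 cell-line arrays the 5 most alike were Macroh2a2, 1500002F19Rik, Gas2, Tmem108 and Zfp386 (0.999 to 0.995), over arrays that fall in 2 groups.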

How the data were processed

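Biotin-labelled RNA, 100 ng a sample, was read on Affymetrix arrays, per the labels' protocols. The submitters' processing notes name MAS5 alone. The authors deposited log ratios, read here as log2 although their base and the scaling of the arrays are unstated. Another base would multiply every difference by one constant. The number of arrays limits the precision.

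Of 45141 probe sets, 28898 named 1 gene in an annotation table of 2016, 551 several and 15692 none. RefSeq GRCm38.p6 held 28689 of the 28898, and 0 symbols changed. For each of 17097 genes the probe set that varied most around the means of cells and of tumours was used; 7180 genes had more than 1.

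Linear models were fitted with limma 3.58.1 in R 4.3.3 (no trend, two-sided, Benjamini-Hochberg over all genes, threshold 0.05), once over the 8 cell-line arrays, once over the 16 tumours, and over 16 arrays of 4 groups for the difference of LAP effects. SE and 95% intervals come from these fits. The steps were tested on simulated data. Probe sets of the GTPase genes were also compared by exact permutation tests.

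The GTPase genes and all lists were chosen with earlier results of these data known. Named are the 8 GTPase genes, up to 6 list members past the threshold, a few well-known members with values only, and the 10 and 5 genes of most similar pattern. Tgtp1 in the tumours, the genes under other observations and the singled-out cell markers were picked after their values were seen. Same-numbered samples did not deviate together in all pairs of any comparison (lowest correlation between -0.64 and -0.009), so no pairing was used. Alternatives were other probe-set rules, normalizations, weights, filters and fits, a replicate block, and leaving out each sample. Leaving LAP B-ALL 4 out of comparisons of other groups was added after seeing the data.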

Additional observations from a re-analysis of the deposited data

Results flagged for a closer look

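Of 35 groups of 4 or 5 samples tested for a single value apart from the rest, 2 had one, where chance gives about 1 in 20. Gbp2 was at -0.66 in BKO408 LAP 2, below -0.499 to -0.468 in the other LAP samples. Irgm1 was at -0.965 in Blnk preB-ALL 1, below -0.077 to 0.229 in the other Blnk preB-ALL.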

How the results depend on the processing

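In the cell line 6 GTPase genes passed under each alternative but one: with all 24 arrays in one fit, which takes in the spread of the tumours, 0 passed. The tumour counts moved more, and the cause was not tested. Between LAP/Blnk and LAP preB-ALL the count of 1 was 0 with the mean of all probe sets (Ifi47 adjusted p = 0.0535) and 0 with only the groups compared, and 0 to 1 without single tumours. Between LAP B-ALL and Blnk preB-ALL the count of 1 was 0 with the mean of probe sets, 0 with quantile normalization and 5 with array weights, and 0 to 5 without single tumours. Between LAP B-ALL and LAP/Blnk preB-ALL the count of 2 was 1 with the mean of probe sets (Irgm2 lost, adjusted p = 0.0503), 3 with quantile normalization (Igtp gained), 7 with array weights, 5 with only the genes of larger spread and 4 with only the groups compared (Ifi47 lost, adjusted p = 0.0511), and 0 to 6 without single tumours. For the difference of LAP effects the count of 0 was 3 with quantile normalization (Gbp2 3.08, Gbp3 2.20 and Iigp1 -1.21), 2 with array weights, 1 with only the genes of larger spread, and 0 to 3 without single arrays. In this comparison the quantile step put cells and tumours, of unlike spread, on a shared distribution and so rescaled the effect in cells.

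Counts over all genes moved too. In the cell line 3820 became 21 with all 24 arrays in one fit. With array weights they became 33 from 3 (LAP/Blnk against Blnk preB-ALL), 24 from 14 (LAP against Blnk preB-ALL), 4 from 0 (LAP B-ALL against LAP preB-ALL), 3619 from 248 (LAP B-ALL against Blnk preB-ALL), 4063 from 602 (LAP B-ALL against LAP/Blnk preB-ALL) and 820 from 180 (difference of LAP effects). Quantile normalization gave 29 in LAP/Blnk against Blnk preB-ALL, 2 in LAP against Blnk preB-ALL and 1680 for the difference of LAP effects. The last of these again had cells and tumours on a shared distribution. The mean of probe sets gave 0 in LAP against Blnk preB-ALL and 107 in LAP B-ALL against Blnk preB-ALL. Genes of larger spread alone gave 3 in LAP against Blnk preB-ALL, and 262 against 406 between LAP/Blnk and LAP preB-ALL. Only the groups compared gave 5, 50 and 411 in LAP against Blnk, LAP/Blnk against LAP and LAP B-ALL against Blnk. Leaving LAP B-ALL 4 out of the shared fit gave 5, 107 and 623 in the 3 comparisons without LAP B-ALL, and 1835 and 1980 in LAP B-ALL against Blnk and LAP/Blnk preB-ALL. LAP B-ALL against LAP preB-ALL went from 0 to 291 without LAP preB-ALL 4.

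With the replicate block over shared numbers, 0 GTPase genes passed for LAP/Blnk against LAP preB-ALL (Ifi47 -1.93, adjusted p = 0.356), 0 for LAP B-ALL against Blnk preB-ALL (Gbp3 1.70, adjusted p = 0.0735) and 7 for LAP B-ALL against LAP/Blnk preB-ALL, where the block leaves out LAP B-ALL 4, whose number no LAP/Blnk preB-ALL has. No GTPase call changed in the other comparisons. Over all genes the block gave 0 in LAP/Blnk and LAP against Blnk preB-ALL, LAP/Blnk against LAP preB-ALL and LAP B-ALL against Blnk preB-ALL, and 2680 in LAP B-ALL against LAP/Blnk preB-ALL.

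No gene that passed changed direction. Among those that did not pass, the sign turned in LAP/Blnk against Blnk preB-ALL for Gbp2 (0.12 with the block, -0.72 to 0.0022 without single tumours) and Gbp3 (-0.13 to 0.33), and in LAP against Blnk preB-ALL for Irgm1 (-0.00098 to 0.59). In LAP B-ALL against LAP preB-ALL it turned for Iigp1 (-0.23 with quantile normalization, -0.28 to 1.52 without single tumours), Ifi47 (0.37 with array weights, -0.57 to 0.31), Igtp (-0.058 to 1.02) and Irgm1 (-0.14 to 0.46). For the difference of LAP effects quantile normalization turned Igtp (0.094) and Irgm1 (0.030).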

Other observations

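Other genes of the interferon and T-cell lists also had wide ranges in the tumours. Cxcl9, a chemokine that attracts T cells, read 3.67 and 2.04 in LAP preB-ALL 2 and 4, while LAP B-ALL 1 to 4 read 4.05, 2.59, 4.14 and -1.86 and the 3 LAP/Blnk preB-ALL lay between -2.97 and -1.80. Ciita, the activator of MHC class II genes, read 3.82 and 2.13 in LAP preB-ALL 2 and 4, while LAP B-ALL 1 to 4 read 2.59, 1.96, 3.49 and -0.097. In the other 10 tumours Ciita lay between -0.34 and 0.73. Cd3g, a subunit of the T-cell receptor complex, read 3.16 and 3.54 in LAP preB-ALL 2 and 4 and 2.29 in Blnk preB-ALL 5, while LAP B-ALL 1 to 4 read 3.74, 2.59, 4.25 and 0.18. None of these genes passed limma's test in a tumour comparison.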
